A study of Mus musculus with 36 samples.

Results

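The loss of IFNAR1, the signalling chain of the type I interferon receptor, was examined in E18.5 mouse intestine that already carried the auto-processing mutant caspase-8 D387A and lacked cFLIP, MLKL and caspase-1. All samples of 2 genotypes were taken, chosen by their genotype labels, which came to 6 of the 36 RNA-seq libraries of the series. In 3 embryos Casp8 was D387A knock-in and Cflar, Mlkl and Casp1 were deleted (termed Casp1-/- embryos), and in 3 embryos Ifnar1 was deleted as well (termed Casp1-/- Ifnar1-/- embryos). The D387A change, which blocks cleavage of caspase-8 between its catalytic subunits, and the Cflar, Mlkl and Casp1 deletions were therefore shared by both genotypes, and Ifnar1 was the only gene whose genotype differed between them in the labels. The deletions were germline and hence present in every cell type of the gut, all alleles were kept on a C57BL/6N background, and the Cflar and Mlkl deletions came from a single gene-edited founder. Levels were also set beside those of 3 Mlkl-/- embryos of the same set, for which the study names no change of Casp8, Cflar, Casp1 or Ifnar1. Whole intestine was sequenced, so that fewer cells of a type and less RNA per cell cannot be told apart.

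Type I interferons bind a receptor made of IFNAR1 and IFNAR2, whose kinases TYK2 and JAK1 activate the transcription factor complex ISGF3, which binds the interferon-stimulated response element in the promoters of antiviral genes. Many of those genes are also reached by type II and type III interferon receptors, which do not need IFNAR1, and some by NF-κB or interferon regulatory factors directly. In the gut, type III interferon acts mainly on the epithelium.

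Ifnar1 (chr16:91485238-91507441, plus strand, GRCm38) was measured first. Its level was 23.1, 23.9 and 22.7 RPKM (reads scaled to gene width in kilobases and to the TMM-scaled library total) in the 3 Casp1-/- embryos and 9.7, 8.5 and 8.79 RPKM in the 3 Casp1-/- Ifnar1-/- embryos. The groups did not overlap, and Ifnar1 had the smallest p of all 18360 genes tested (log2 fold change -1.37 ± 0.07 (SE), adjusted p = 1.2e-08, edgeR quasi-likelihood test). The deleted embryos kept 38.7% of the level of their counterparts. The counts cover all exons of a gene together, and the labels do not say which exon the allele lacks. Exact permutation of the 6 values gave p = 0.1, two-sided, the smallest p that 3 against 3 allows. Casp1 was at most 0.142 RPKM in every embryo of both genotypes, against 41.5 to 44.4 RPKM in the Mlkl-/- controls. Cflar and Mlkl transcripts remained countable in both genotypes, so these genes were not a check of their own deletion. Cflar was at 5.38 to 6.04 RPKM in Casp1-/- and 6.49 to 6.76 RPKM in Casp1-/- Ifnar1-/- embryos, against 5.8 to 6.42 RPKM in controls.

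Reads on genes ranged from 19871593 to 21057272 in the Casp1-/- libraries and from 22942494 to 25192084 in the Casp1-/- Ifnar1-/- libraries. Intestinal identity held in all embryos, with Cdx2, the intestinal homeobox factor, between 122 and 155 RPKM and Vil1, the microvillus protein villin, between 222 and 369.7 RPKM over the 9 embryos. Not every marker was level. Fabp2, an absorptive enterocyte gene, was at 6418 to 6579 RPKM in controls and 2064 to 3402 RPKM in the Casp1-/- and Casp1-/- Ifnar1-/- embryos. The Casp1-/- embryo numbered 3 stood apart from its group. Over autosomal genes the median absolute log2 difference was 0.123 between Casp1-/- embryos 1 and 2, 0.201 and 0.197 between embryo 3 and these, and 0.148 to 0.200 between embryo 3 and the 3 Casp1-/- Ifnar1-/- embryos. Its Ifnar1 level was nevertheless that of an intact gene. Casp1-/- Ifnar1-/- embryo 1 was also more distant from its group (0.174 and 0.162) than embryos 2 and 3 were from each other (0.0992). The lists of immune and epithelial genes were counted with and without Casp1-/- embryo 3. Reads of Y-linked genes marked all 3 Casp1-/- Ifnar1-/- embryos and 1 of 3 Casp1-/- embryos, embryo 2, as male, and only autosomal genes are described. The titles carry a different number series for each genotype, so colony or litter and genotype cannot be told apart.

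Of 17640 autosomal genes tested, 585 were higher and 359 lower in the Casp1-/- Ifnar1-/- embryos, called at an adjusted p under 0.05 and a fold change above 2. These were 3.32% and 2.04% of the genes tested, 5.35% together, and with the genes of other chromosomes 5.31% of 18360 were called. Protein-coding genes made up 454 of the higher and 283 of the lower genes. Without Casp1-/- embryo 3 the counts were 1107 higher and 585 lower (6.17% and 3.26% of the 17952 genes then tested). Without embryo 1 they were 349 and 258, and without embryo 2 they were 319 and 237. In 822 of the 944 called genes, embryo 3 was the Casp1-/- embryo closest to the mean of the Casp1-/- Ifnar1-/- group. This was counted for called genes only. Over all autosomal genes embryo 3 was also the closest. Its median absolute log2 difference to the Casp1-/- Ifnar1-/- embryos was 0.148 to 0.200, against 0.236 to 0.299 for embryos 1 and 2. In a fit of the 6 libraries alone, 202 genes were higher and 196 lower.

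**Figure D1:**
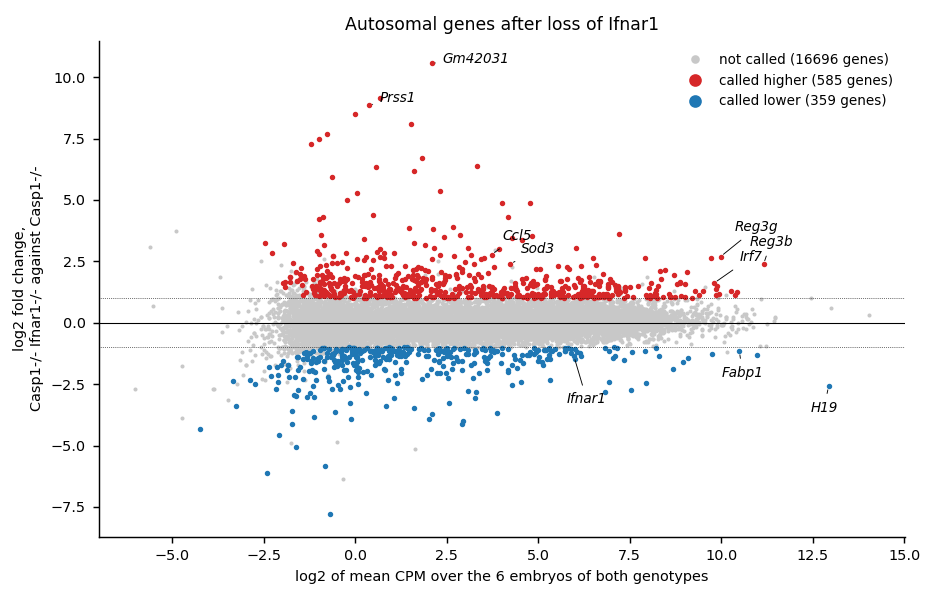
Each point is 1 autosomal gene, with the log2 of its mean CPM over the 6 embryos of both genotypes on the x axis and the log2 fold change of Casp1-/- Ifnar1-/- against Casp1-/- embryos on the y axis. The 585 genes called higher are red and the 359 called lower are blue, dotted lines mark a log2 fold change of 1 in each direction, and genes without reads in one genotype (Gm42031, Prss1) are drawn at their fitted value, which is not a bound.

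Few components of the pathway were called besides Ifnar1 itself. Transcripts of the ligands were barely sequenced. Of 21 interferon genes listed, 8 had any read in the 9 embryos, the highest value was 8 reads in 1 library, and none could be tested. Of 25 receptor and signalling genes tested, 2 were higher and 1, Ifnar1, was lower. Ifnar2, the partner chain, was at 8.19, 8.0 and 10.3 RPKM in Casp1-/- and 8.96, 9.27 and 10.8 RPKM in Casp1-/- Ifnar1-/- embryos (adjusted p = 0.33), and the kinase genes Jak1 and Tyk2 had log2 fold changes of 0.1 and -0.07 (adjusted p = 0.33 and 0.63). The 2 genes that were higher, Irf7 and Usp18, are themselves interferon-stimulated. Irf7, the factor that amplifies interferon production, was at 54.6, 75.9 and 422 RPKM in Casp1-/- embryos and at 426, 607 and 661 RPKM in Casp1-/- Ifnar1-/- embryos (log2 fold change 1.62 ± 0.54 (SE), adjusted p = 0.032). Usp18, which removes ISG15 from proteins and restrains IFNAR2 signalling, was at 21.9, 29.1 and 135 RPKM and 131, 181 and 219 RPKM (log2 fold change 1.51 ± 0.49 (SE), adjusted p = 0.027). For both genes Casp1-/- embryos 1 and 2 were low, and embryo 3 lay just below the Casp1-/- Ifnar1-/- range for Irf7 and inside it for Usp18. Stat2 and Irf9, which encode parts of ISGF3, were not called (log2 fold changes 0.52 and 0.6, adjusted p = 0.097 and 0.024). Without embryo 3, 5 of the 25 genes were called higher, and without Casp1-/- embryo 1 or 2, or without Casp1-/- Ifnar1-/- embryo 2 or 3, 0 were. With sex as a covariate, or in the fit of the 6 libraries of the 2 genotypes alone, 0 were called higher as well.

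Interferon-stimulated antiviral transcripts were not lower without IFNAR1. Of 83 listed genes tested, 26 were higher and 0 were lower, their median log2 fold change was 0.94, and 79 of 83 values were above 0. The median of all autosomal genes was 0.00. Leaving out single embryos changed how many were called higher, to 66 without Casp1-/- embryo 3, to 2 without embryo 1 and to 2 without embryo 2, and to between 7 and 29 when a Casp1-/- Ifnar1-/- embryo was left out. With the sex of the embryo as a covariate 15 were called higher, and in a fit of the 6 libraries alone 0 were. The count of lower genes was 0 in all 15 alternative fits and leave-outs. In every one of the 83 genes embryo 3 exceeded both other Casp1-/- embryos, which was so in 39.9% of all autosomal genes. All 3 Casp1-/- Ifnar1-/- embryos exceeded Casp1-/- embryos 1 and 2 in 78 of the 83 genes, against 29.9% of all autosomal genes.

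The antiviral members differed in how far they stood above the Casp1-/- group. Ifit1bl1, an IFIT-family gene, was at 34, 39 and 201 RPKM in Casp1-/- embryos and 240.4, 418 and 483 RPKM in Casp1-/- Ifnar1-/- embryos, against 1.62, 4.55 and 6.0 RPKM in Mlkl-/- controls (log2 fold change 2.06 ± 0.57 (SE), adjusted p = 0.012 between the first 2 groups). Ifi205, a PYHIN-family gene, was at 0.874, 0.529 and 3.19 RPKM and 5.84, 6.04 and 10.1 RPKM (log2 fold change 2.27 ± 0.47 (SE), adjusted p = 0.0023). The groups did not overlap for either gene. Slfn2, a Schlafen gene, was at 29.8, 29 and 257 RPKM and 223, 471 and 505 RPKM (log2 fold change 1.92 ± 0.60 (SE), adjusted p = 0.023), with embryo 3 of the Casp1-/- group inside the range of the other. Several canonical members did not pass the test. Mx1, a dynamin-like GTPase that blocks orthomyxoviruses, was at 8.39, 14 and 57.7 RPKM and 47, 58.8 and 68.2 RPKM (adjusted p = 0.081), and Oas3, a 2′-5′ oligoadenylate synthetase, at 2.31, 4.3 and 31.5 RPKM and 39.8, 35.3 and 42.8 RPKM (adjusted p = 0.052). Isg15, the ubiquitin-like modifier, which was picked after its values were seen, was at 151, 186 and 1257 RPKM and 1096, 1523 and 1787 RPKM (adjusted p = 0.071). Without embryo 3 the log2 fold changes of Mx1, Oas3 and Isg15 were 2.37, 3.57 and 3.12 (adjusted p = 5.6e-06, 2.9e-07 and 1.2e-05).

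**Figure D2:**
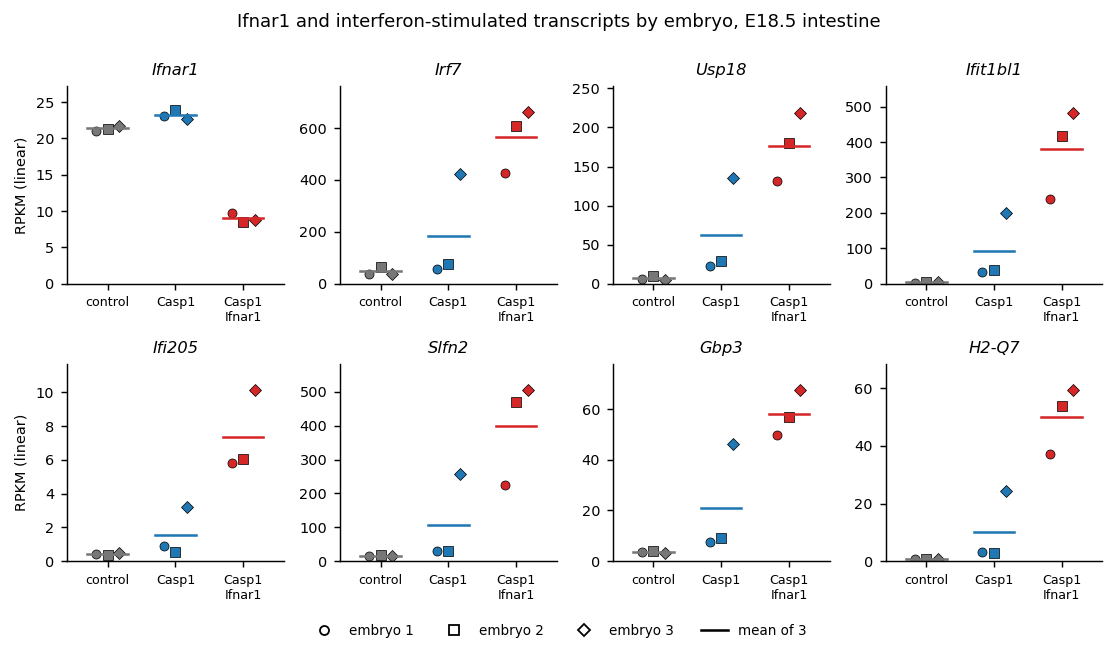
RPKM (linear y axis) of Ifnar1 and 7 interferon-stimulated genes in Mlkl-/- control (grey), Casp1-/- (blue) and Casp1-/- Ifnar1-/- (red) embryos, with 1 symbol per embryo and a bar at the mean of 3. Ifnar1 fell in all 3 deleted embryos, while the other 7 transcripts were lowest in controls and in Casp1-/- embryos 1 and 2, with Casp1-/- embryo 3 (blue diamond) set apart.

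Set against Mlkl-/- controls, 73 of the 83 antiviral genes were called higher in Casp1-/- Ifnar1-/- embryos (median log2 fold change 2.45) and 46 in Casp1-/- embryos (median 1.48), where 6.82% and 2.2% of all autosomal genes tested were called higher (5.7% and 2.22% were called lower). Both comparisons use the same 3 controls. None of the 83 was called lower in either. Per embryo, the RPKM summed over the whole list were 1506 to 1909 in controls, 2259.5, 2689.97 and 9324 in the Casp1-/- embryos and 8621, 10271 and 11685 in the Casp1-/- Ifnar1-/- embryos.

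The promoter letters recognised by ISGF3 are shown for the 4 called antiviral genes of largest fold change in which they were found, to place the response beside its regulatory sequence. The motif searched was GAAA, any 2 bases and GAAA again, on either strand, in the 250 bases before each RefSeq gene start (GRCm38.p6), and capitals mark it. A promoter was matched by symbol for 12123 of 17636 autosomal symbols. Where a symbol had several promoters, the one with the most motif matches was taken. The share over all 32851 promoters counts each promoter once. The stretches are written 5′ to 3′ along the gene's strand and lie at chr1:174031756-174032005 (minus strand), chr19:34599428-34599677 (minus), chr1:173913047-173913296 (minus) and chr11:82951852-82952101 (plus).
Ifi205: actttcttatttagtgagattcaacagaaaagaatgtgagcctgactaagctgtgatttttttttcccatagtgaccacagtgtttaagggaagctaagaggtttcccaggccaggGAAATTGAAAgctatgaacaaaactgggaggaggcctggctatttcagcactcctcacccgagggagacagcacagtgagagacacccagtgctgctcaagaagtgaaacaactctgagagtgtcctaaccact
Ifit1bl1: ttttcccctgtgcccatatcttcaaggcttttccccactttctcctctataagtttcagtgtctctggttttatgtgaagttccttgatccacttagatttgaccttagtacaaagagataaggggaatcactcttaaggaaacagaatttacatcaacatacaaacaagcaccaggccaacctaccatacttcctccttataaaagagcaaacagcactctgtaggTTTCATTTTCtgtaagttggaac
Ifi211: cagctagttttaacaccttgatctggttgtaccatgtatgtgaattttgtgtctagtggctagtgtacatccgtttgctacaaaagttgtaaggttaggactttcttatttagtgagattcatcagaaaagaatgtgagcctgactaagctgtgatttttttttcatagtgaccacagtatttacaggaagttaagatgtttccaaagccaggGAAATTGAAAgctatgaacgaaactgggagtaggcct
Slfn5: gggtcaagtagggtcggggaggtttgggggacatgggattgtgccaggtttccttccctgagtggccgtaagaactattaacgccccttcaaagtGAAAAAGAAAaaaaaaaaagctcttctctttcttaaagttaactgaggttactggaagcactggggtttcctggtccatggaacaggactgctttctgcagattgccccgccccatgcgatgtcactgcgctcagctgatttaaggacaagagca
Of 63 antiviral genes with a promoter in the table, 27 (42.9%) held the motif, as did 7 of the 20 called higher (35%). The motif was in 2.98% of all 32851 promoters of the table, in 406 of the 12123 matched to autosomal genes tested (3.35%), in 37 of 402 promoters of genes called higher (9.2%) and in 5 of 251 of genes called lower (1.99%). Ifi211, from the same PYHIN cluster as Ifi205, was at 0.382, 0.68 and 3.04 RPKM in Casp1-/- and 3.04, 4.73 and 4.6 RPKM in Casp1-/- Ifnar1-/- embryos, and Slfn5 at 2.81, 2.85 and 18 RPKM and 23.4, 20.8 and 25.9 RPKM (log2 fold changes 1.6 and 1.57, adjusted p = 0.019 and 0.019). A match is a description of the letters only. PYHIN and Schlafen genes have close paralogs, so their separate levels are uncertain.

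Genes that interferon-γ also induces were called higher or not called. Of 18 guanylate-binding protein and immunity-related GTPase genes tested, which restrict intracellular pathogens, 7 were higher and 0 lower (median log2 fold change 0.94, with 15 higher without Casp1-/- embryo 3). The number was 1 without Casp1-/- embryo 1, without embryo 2 or without Casp1-/- Ifnar1-/- embryo 3, 4 with sex as a covariate and 0 in the fit of the 6 libraries. Gbp3 was at 7.67, 9.33 and 46.1 RPKM in Casp1-/- and 49.6, 56.8 and 67.5 RPKM in Casp1-/- Ifnar1-/- embryos (log2 fold change 1.47 ± 0.44 (SE), adjusted p = 0.02). Tgtp1, a T-cell-specific GTPase, was at 0.467, 0.334 and 2.14 RPKM and 2.62, 3.82 and 4.88 RPKM (log2 fold change 1.95 ± 0.43 (SE), adjusted p = 0.0035). Of 18 interferon-γ-type targets, 5 were higher and 0 lower (median 0.73), with 2 higher without Casp1-/- embryo 1, 1 without embryo 2, 12 without embryo 3, 3 without Casp1-/- Ifnar1-/- embryo 2 or 3 and 1 in the fit of the 6 libraries. Upp1, a uridine phosphorylase, was the member that stayed called in all 15 alternatives, at 4.71, 4.29 and 14.1 RPKM and 24.3, 39.3 and 40.8 RPKM (log2 fold change 2.18 ± 0.32 (SE), adjusted p = 0.0004). Batf2, a bZIP transcription factor, was at 3.3, 3.55 and 27.1 RPKM and 34.2, 32.4 and 34.4 RPKM (log2 fold change 1.58 ± 0.51 (SE), adjusted p = 0.026), with embryo 3 again next to the Casp1-/- Ifnar1-/- group.

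Antigen presentation by MHC class I was the interferon-linked group with the largest share of called genes. Of 22 genes tested 14 were higher and 0 lower, with a median log2 fold change of 1.14. All 22 values were above 0, and in 12 genes the Casp1-/- Ifnar1-/- embryos lay wholly above the Casp1-/- embryos, which held for 17.4% of all autosomal genes. Without Casp1-/- embryo 3, 19 were called, without embryo 1 or without embryo 2 only 3 were, and in the fit of the 6 libraries 0 were. H2-Q7, a non-classical class I molecule, was at 3.02, 2.9 and 24.4 RPKM in Casp1-/- and 37.2, 53.8 and 59.3 RPKM in Casp1-/- Ifnar1-/- embryos (log2 fold change 2.31 ± 0.55 (SE), adjusted p = 0.0053). H2-D1, a classical heavy chain, was at 133, 159 and 454 RPKM and 565, 637 and 720.2 RPKM (log2 fold change 1.36 ± 0.30 (SE), adjusted p = 0.0035). The groups did not overlap for either. The class I genes are close copies of each other, so their separate values are uncertain. Among 9 MHC class II genes, Ciita, the class II transactivator, was higher (log2 fold change 1.14 ± 0.32 (SE), adjusted p = 0.015) and 0 were lower. Cd74, the invariant chain, was at 31, 33.6 and 76.2 RPKM and 88.7, 79.8 and 85.9 RPKM and H2-Aa at 10.1, 8.46 and 16.3 RPKM and 24.1, 19.9 and 23 RPKM, neither past the fold threshold (log2 fold changes 0.85 and 0.94, adjusted p = 0.013 and 0.0022). Without Casp1-/- embryo 3, 6 of the 9 were called higher, with Cd74 at 1.39 and H2-Aa at 1.27 on the log2 scale, while 0 were called without Casp1-/- embryo 2, without Casp1-/- Ifnar1-/- embryo 1 or in the fit of the 6 libraries. Here the Mlkl-/- controls stood at 71.8, 69.2 and 59.4 RPKM for Cd74 and 29.5, 30.3 and 27 RPKM for H2-Aa. Against these controls 4 of 9 class II genes were lower in Casp1-/- embryos and 0 of 9 in Casp1-/- Ifnar1-/- embryos. Of all autosomal genes, 2.22% and 5.7% were called lower in these comparisons.

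Nucleic acid sensors and cell death genes were counted next. Of 19 RNA- and DNA-sensing genes 4 were higher and 0 lower, with 8 higher without Casp1-/- embryo 3, 2 without Casp1-/- Ifnar1-/- embryo 2 or 3 or with sex as a covariate, and 0 without Casp1-/- embryo 1, without embryo 2 or in the fit of the 6 libraries. Tlr3, the endosomal receptor for double-stranded RNA, was at 1.35, 1.24 and 2.59 RPKM in Casp1-/- and 3.45, 3.55 and 3.76 RPKM in Casp1-/- Ifnar1-/- embryos (log2 fold change 1.06 ± 0.20 (SE), adjusted p = 0.0014), and Ifih1, which encodes MDA5, at 9.49, 10.5 and 28.6 RPKM and 29.4, 40.7 and 41.9 RPKM (log2 fold change 1.21 ± 0.30 (SE), adjusted p = 0.0064). Of 48 cell death genes 5 were higher and 0 lower, the median was 0.42, and 3 were higher without Casp1-/- embryo 1 or embryo 2, 10 without embryo 3 and 1 in the fit of the 6 libraries. Fas, the death receptor, was at 4.97, 7.04 and 13.2 RPKM and 15.8, 27.6 and 28 RPKM and stayed called in all 15 alternatives (log2 fold change 1.5 ± 0.26 (SE), adjusted p = 0.00095). Casp4, which encodes the caspase-11 that senses cytosolic lipopolysaccharide, was at 21.6, 21 and 65.8 RPKM and 69.6, 97.6 and 95.5 RPKM (log2 fold change 1.28 ± 0.31 (SE), adjusted p = 0.0057). The remaining reads of the deleted Mlkl gene were at 3.13, 3.72 and 23 RPKM and 22.9, 27.9 and 27.4 RPKM (log2 fold change 1.39 ± 0.46 (SE), adjusted p = 0.03), with Casp1-/- embryo 3 just inside the other range. Casp8 itself was at 25.8, 24.5 and 35.5 RPKM and 33.9, 33.3 and 39.6 RPKM and Fadd at 9.63, 11.1 and 10.8 RPKM and 10.6, 9.31 and 10.1 RPKM, neither of them past the fold threshold.

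Inflammatory mediators named by the study were described next. Because the study chose these lists on this series, their direction is not independent evidence. Of 12 chemokines and cytokines 5 were higher and 0 lower (median log2 fold change 1.32), and all 12 were called without Casp1-/- embryo 3, 3 without embryo 1 and 2 without embryo 2. In the fit of the 6 libraries 0 were. Ccl5, which attracts T cells, was at 2.14, 1.61 and 15.4 RPKM in Casp1-/- and 30.2, 41.2 and 58.7 RPKM in Casp1-/- Ifnar1-/- embryos (log2 fold change 2.77 ± 0.56 (SE), adjusted p = 0.002). Tnf was at 0.583, 0.658 and 3.64 RPKM and 4.43, 5.17 and 4.98 RPKM (log2 fold change 1.59 ± 0.45 (SE), adjusted p = 0.014), and Il1b at 2.01, 1.39 and 3.48 RPKM and 4.54, 4.46 and 5.99 RPKM (log2 fold change 1.13 ± 0.30 (SE), adjusted p = 0.0098). All 3 Casp1-/- Ifnar1-/- embryos were above all 3 Casp1-/- embryos for these genes. Cxcl10, the interferon-induced chemokine, was at 25.5, 35.8 and 142 RPKM and 82.8, 101 and 128 RPKM, where the ranges overlapped (adjusted p = 0.28). Its level in Mlkl-/- controls was 0.697, 1.38 and 0.987 RPKM. Cxcl9 was likewise not called (0.708, 0.467 and 1.98 RPKM and 0.94, 1.38 and 1.36 RPKM, adjusted p = 0.69). Of 11 autosomal defence genes of the study, Nos2 and Gbp2 were higher and Marco was lower. Gbp2 lay at the fold threshold itself (log2 fold change 1.0001 ± 0.31 (SE), adjusted p = 0.022). The number higher was 7 without Casp1-/- embryo 3, 5 with limma-voom, 1 with prior count 2 and 0 in the fit of the 6 libraries. Nos2, the inducible nitric oxide synthase, was at 8.17, 7.21 and 37.1 RPKM and 55.1, 41.3 and 47.3 RPKM (log2 fold change 1.45 ± 0.42 (SE), adjusted p = 0.015). Marco, a macrophage scavenger receptor, was at 6.12, 5.58 and 4.73 RPKM and 2.45, 2.78 and 2.83 RPKM (log2 fold change -1.03 ± 0.26 (SE), adjusted p = 0.0076), and at no more than 0.218 RPKM in the controls. The call of Marco was lost without Casp1-/- embryo 1 or Casp1-/- Ifnar1-/- embryo 1, those of Nos2 and Gbp2 without Casp1-/- embryo 1 or 2, and that of Gbp2 also without Casp1-/- Ifnar1-/- embryo 3. Among 25 NF-κB feedback genes 2 were higher, Tnip3 (0.462, 0.412 and 2.73 RPKM and 4.18, 5.85 and 4.6 RPKM, log2 fold change 2.03, adjusted p = 0.0076) and Relb (15.1, 15.5 and 42.6 RPKM and 51.2, 52 and 51.6 RPKM, log2 fold change 1.08, adjusted p = 0.0062), and 12 were higher without embryo 3, 1 without embryo 1 or embryo 2 and 0 in the fit of the 6 libraries. Nfkbia, which encodes the inhibitor IκBα, was at 58.1, 56.5 and 141 RPKM and 133, 132 and 139 RPKM (log2 fold change 0.66, adjusted p = 0.043).

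Epithelial antimicrobial genes were called higher in every leave-out. Of 22 autosomal genes tested 13 were higher and 0 lower, with a median log2 fold change of 1.71, and between 8 and 14 were called when any 1 embryo was left out. In the fit of the 6 libraries 7 were called. Reg3g, a C-type lectin that kills Gram-positive bacteria, was at 153, 158 and 744 RPKM in Casp1-/- and 2310.4, 2440.5 and 2084 RPKM in Casp1-/- Ifnar1-/- embryos, against 5.17, 3.41 and 4.15 RPKM in controls (log2 fold change 2.7 ± 0.45 (SE), adjusted p = 0.00069 between the first 2 groups). Its relative Reg3b was at 489, 471 and 1852 RPKM and 4307, 5767 and 4644 RPKM (log2 fold change 2.39 ± 0.40 (SE), adjusted p = 0.00073). Retnlb, the goblet cell product RELMβ, was at 0.131, 0 and 0.755 RPKM and 1.34, 4.26 and 3.77 RPKM (log2 fold change 3.41 ± 0.69 (SE), adjusted p = 0.002). No Casp1-/- embryo, embryo 3 included, reached the lowest Casp1-/- Ifnar1-/- embryo for these genes. Duox2 and its maturation factor Duoxa2, which make hydrogen peroxide at the apical surface, were at 1.11, 0.853 and 14.5 RPKM and 1.94, 1.19 and 32.5 RPKM in Casp1-/- embryos. In Casp1-/- Ifnar1-/- embryos they were at 32.7, 25.5 and 25.2 RPKM and 58.9, 53 and 60.5 RPKM (log2 fold changes 2.34 ± 0.67 and 2.28 ± 0.69, SE, adjusted p = 0.015 and 0.02). Of the 13 genes, 6 stayed called in all 15 alternatives: Reg3g, Reg3b, Retnlb, Pigr, Ang4 and Slpi.

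Goblet cell and regenerative genes were also higher. Of 14 goblet cell genes 8 were higher and 0 lower (median log2 fold change 1.15), with 10 called without Casp1-/- embryo 3, 2 without embryo 1, 2 without embryo 2, 3 without Casp1-/- Ifnar1-/- embryo 2, 5 without Casp1-/- Ifnar1-/- embryo 3 and 4 in the fit of the 6 libraries. Muc2, the gel-forming mucin, was at 32.2, 30.1 and 107 RPKM in Casp1-/- and 142, 134 and 114 RPKM in Casp1-/- Ifnar1-/- embryos (log2 fold change 1.21 ± 0.41 (SE), adjusted p = 0.034). Zg16, a lectin of the mucus, was at 35.2, 34.1 and 223 RPKM and 499, 724 and 609.6 RPKM (log2 fold change 2.65 ± 0.70 (SE), adjusted p = 0.0094). The goblet cell fate factors Atoh1 and Spdef were not called (log2 fold changes 0.23 and 0.45, adjusted p = 0.47 and 0.12). Of 17 genes of the fetal-like regenerative epithelium 6 were higher and 0 lower, with 9 higher without Casp1-/- embryo 3, 3 without Casp1-/- embryo 1, embryo 2 or Casp1-/- Ifnar1-/- embryo 2, 4 without Casp1-/- Ifnar1-/- embryo 3 and 1 in the fit of the 6 libraries. Ly6a, which encodes SCA-1, was at 9.06, 8.33 and 56.9 RPKM and 143, 151 and 166 RPKM (log2 fold change 2.64 ± 0.48 (SE), adjusted p = 0.0012), and Areg, the EGF receptor ligand amphiregulin, at 5.65, 4.96 and 23.1 RPKM and 29.5, 37.7 and 41.2 RPKM (log2 fold change 1.69 ± 0.38 (SE), adjusted p = 0.0038). Ly6a is interferon-responsive too.

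**Figure D3:**
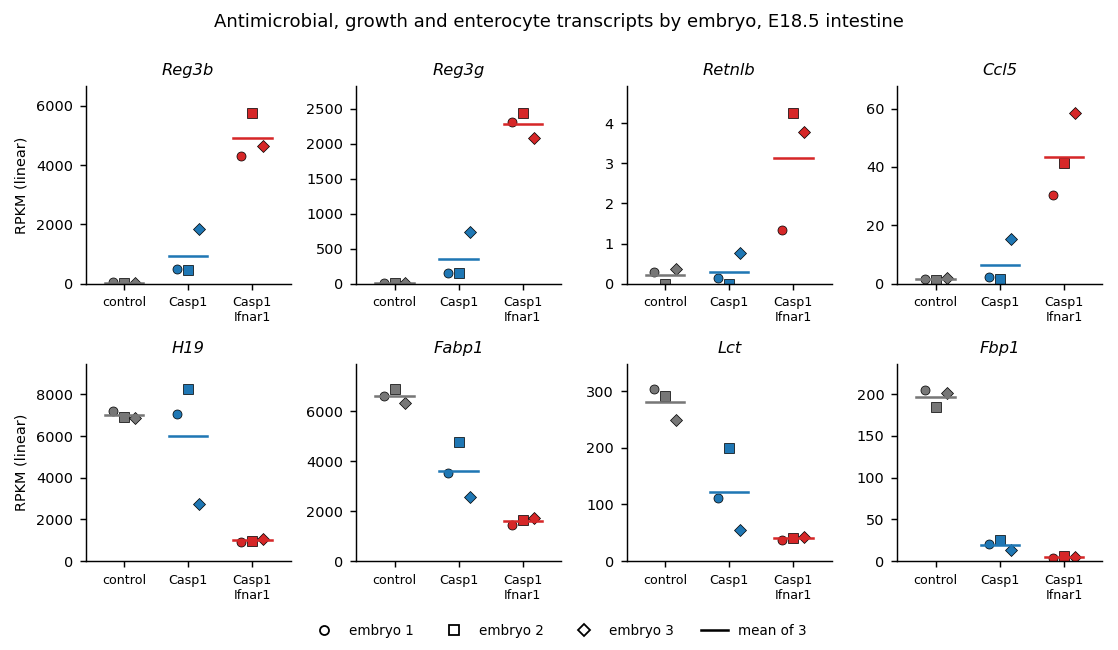
RPKM (linear y axis) of 8 genes in Mlkl-/- control (grey), Casp1-/- (blue) and Casp1-/- Ifnar1-/- (red) embryos, with 1 symbol per embryo and a bar at the mean of 3. Reg3b, Reg3g, Retnlb and Ccl5 were above every Casp1-/- embryo in all 3 Casp1-/- Ifnar1-/- embryos, and H19, Fabp1, Lct and Fbp1 were below every Casp1-/- embryo.

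Without Casp1-/- embryo 3 the median log2 fold change went from 0.94 to 1.71 for antiviral genes and from 1.71 to 2.65 for epithelial antimicrobial genes. This follows from the higher level of these genes in that embryo. Of all 585 higher genes, 240 stayed called in each of the 6 leave-outs and 76 in all 15 alternatives. The numbers among the 359 lower genes were 174 and 94. Among the 26 antiviral genes called higher they were 2 and 0, and among the 13 epithelial antimicrobial genes 8 and 6.

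**Figure D4:**
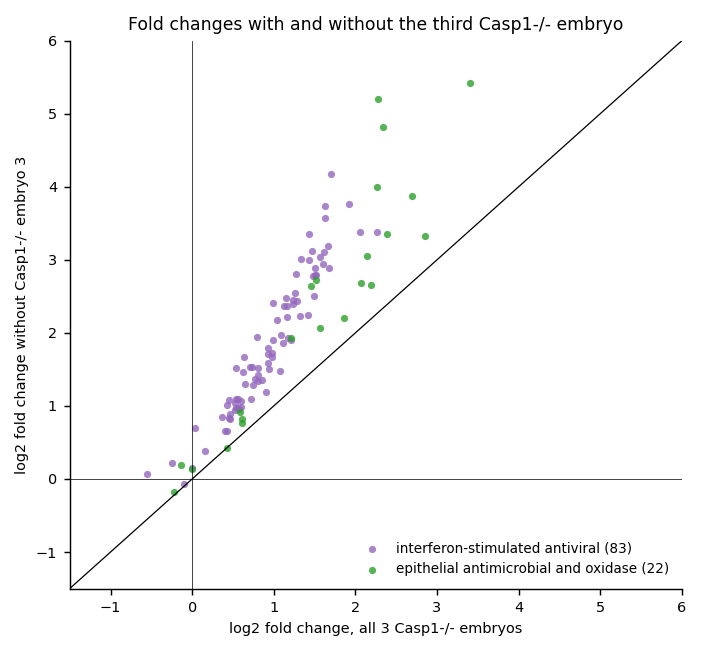
Each point is 1 gene, with its log2 fold change from all 3 Casp1-/- embryos on the x axis and from Casp1-/- embryos 1 and 2 on the y axis, both against the 3 Casp1-/- Ifnar1-/- embryos. All 83 antiviral genes (purple), in which embryo 3 was the highest Casp1-/- embryo, and 21 of 22 epithelial antimicrobial genes (green) lay above the diagonal line of equal values, as did 8664 of 17640 autosomal genes.

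Absorptive enterocyte genes changed in both directions. Of 38 tested 6 were higher and 5 lower (median log2 fold change 0.30), and they numbered 3 and 5 without Casp1-/- embryo 1, 4 and 2 without embryo 2, and 3 and 2 in the fit of the 6 libraries. The lower genes included Fabp1, the liver-type fatty acid carrier of the proximal gut, at 3521, 4757 and 2575 RPKM in Casp1-/- and 1467, 1652 and 1731 RPKM in Casp1-/- Ifnar1-/- embryos (log2 fold change -1.16 ± 0.15 (SE), adjusted p = 0.0002). They also included Lct, the milk-sugar hydrolase lactase, at 112, 199 and 54.5 RPKM and 38, 40.5 and 42.9 RPKM (log2 fold change -1.59 ± 0.35 (SE), adjusted p = 0.0035), and Cubn, the receptor for vitamin B12 and proteins in the ileum, at 20.4, 22.2 and 9.6 RPKM and 7.68, 6.46 and 6.03 RPKM (log2 fold change -1.37 ± 0.24 (SE), adjusted p = 0.00093). The higher genes included Slc51b, a bile acid exporter subunit, at 38, 41.8 and 147 RPKM and 162, 243 and 227 RPKM (log2 fold change 1.48 ± 0.35 (SE), adjusted p = 0.0051), and Slc10a2, the ileal bile acid importer, at 1.54, 1.11 and 4.04 RPKM and 4.5, 5.89 and 6.5 RPKM (log2 fold change 1.34 ± 0.36 (SE), adjusted p = 0.011). Krt20, a keratin of differentiated epithelium, was at 77.7, 104 and 183 RPKM and 253, 271 and 304 RPKM (log2 fold change 1.18 ± 0.23 (SE), adjusted p = 0.0017). Against Mlkl-/- controls, 11 of the 38 genes were lower and 4 higher in Casp1-/- Ifnar1-/- embryos, and 9 were lower and 0 higher in Casp1-/- embryos. Of all autosomal genes, 5.7% were lower and 6.82% higher in the former, and 2.22% lower and 2.2% higher in the latter.

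The lower genes of smallest p besides Ifnar1 included an imprinted RNA and metabolic enzymes. H19, an imprinted non-coding RNA that is abundant in fetal tissue, was at 7078, 8237 and 2721 RPKM in Casp1-/- and 940.1, 975 and 1081 RPKM in Casp1-/- Ifnar1-/- embryos (log2 fold change -2.59 ± 0.28 (SE), adjusted p = 6.9e-05). Its level in Mlkl-/- controls was 7223, 6908 and 6865 RPKM, so that Casp1-/- embryos 1 and 2 were above the lowest control and embryo 3 lay between the groups. The imprinted genes Igf2 and Cdkn1c of the same chromosome, looked up after the values of H19 were seen, were at 632, 729 and 304 RPKM and 516, 466 and 258 RPKM in Casp1-/- embryos. In Casp1-/- Ifnar1-/- embryos Igf2, the fetal growth factor, was at 189, 230.4 and 244 RPKM and Cdkn1c, the cell cycle inhibitor p57, at 141, 155 and 159 RPKM (log2 fold changes -1.33 ± 0.23 and -1.45 ± 0.19, SE, adjusted p = 0.00081 and 0.0002). Fbp1, an enzyme of gluconeogenesis, was at 20.3, 24.9 and 13 RPKM and 3.82, 6.2 and 5.15 RPKM against 205, 185 and 202 RPKM in controls (log2 fold change -1.94 ± 0.20 (SE), adjusted p = 6.9e-05 between the first 2 groups). Acot3, a peroxisomal acyl-CoA thioesterase, was at 4.84, 7.05 and 2.86 RPKM and 1.17, 1.31 and 1.03 RPKM (log2 fold change -2.07 ± 0.22 (SE), adjusted p = 6.9e-05). Dmtn, which encodes the actin-bundling dematin, was at 4.73, 4.5 and 3.34 RPKM and 1.79, 1.77 and 1.95 RPKM (log2 fold change -1.19 ± 0.12 (SE), adjusted p = 6.9e-05). H19, Igf2, Cdkn1c, Fbp1, Acot3 and Dmtn stayed called in all 15 alternatives.

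The higher genes of smallest p included Sod3, the extracellular superoxide dismutase, at 1.19, 1.25 and 2.4 RPKM in Casp1-/- and 10.3, 7.63 and 7.43 RPKM in Casp1-/- Ifnar1-/- embryos (log2 fold change 2.39 ± 0.22 (SE), adjusted p = 3.1e-05). Serpina3n, an acute-phase protease inhibitor, was at 0, 0.0653 and 0.115 RPKM and 1.3, 1.24 and 1.39 RPKM (log2 fold change 4.4 ± 0.45 (SE), adjusted p = 6.9e-05). Vgll3, a TEAD cofactor, was at 1.14, 0.866 and 1.21 RPKM and 2.98, 4.37 and 4.9 RPKM (log2 fold change 1.93 ± 0.21 (SE), adjusted p = 6.9e-05). Slc5a12, a sodium-coupled lactate carrier, was at 0.0627, 0.112 and 0.50 RPKM and 3.35, 3.12 and 3.5 RPKM (log2 fold change 3.9 ± 0.49 (SE), adjusted p = 0.0002). In these 4 genes the Casp1-/- Ifnar1-/- embryos stood wholly above the Casp1-/- embryos, embryo 3 included. Adh6a, an alcohol dehydrogenase, and Hsd17b6, a steroid dehydrogenase, followed the same order, with log2 fold changes of 2.74 ± 0.28 and 2.7 ± 0.33 (SE, adjusted p = 6.9e-05 and 0.00016).

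The lists of the gut wall held few called genes. Of 16 intestinal stem cell, 28 cell cycle, 13 smooth muscle and 15 fibroblast and matrix genes, 0 were called in either direction. Their median log2 fold changes were 0.13, 0.16, -0.17 and -0.32. In 9 of the 15 fibroblast genes the Casp1-/- Ifnar1-/- embryos nevertheless lay wholly below the Casp1-/- embryos, as did 18.4% of all autosomal genes, and 7 were lower at an adjusted p under 0.05 without the fold threshold, as were 15.1% of all autosomal genes. Without Casp1-/- embryo 3 the stem cell and cell cycle lists each had 1 gene called higher, as did the cell cycle list without Casp1-/- Ifnar1-/- embryo 1. Olfm4, a stem cell marker, was at 48.8, 52.3 and 41.4 RPKM and 66.6, 54.4 and 50.7 RPKM (adjusted p = 0.2), and Col1a1, a fibrillar collagen, at 235, 212 and 208 RPKM and 179, 138 and 138 RPKM (log2 fold change -0.53, adjusted p = 0.0037). Of 17 enteric neuron and glia genes, Gfap, the glial intermediate filament, was higher (0.067, 0.0773 and 0.105 RPKM and 0.334, 0.279 and 0.249 RPKM, adjusted p = 0.0045) and 0 were lower (median -0.53). In 12 of these 17 genes the Casp1-/- Ifnar1-/- embryos lay wholly below the Casp1-/- embryos, and 10 were lower without the fold threshold, read against the same 18.4% and 15.1%. Of 20 enteroendocrine genes, Nts, the peptide neurotensin, was higher (20.1, 14.7 and 38.8 RPKM and 48.9, 62.2 and 63.9 RPKM, adjusted p = 0.0038) and Neurog3, the factor of endocrine progenitors, was lower (2.39, 3.53 and 1.73 RPKM and 0.882, 0.659 and 0.988 RPKM, adjusted p = 0.00074). The call of Nts was lost without Casp1-/- embryo 2 and in the fit of the 6 libraries. Of 12 endothelial genes, Lyve1, a marker of lymphatic vessels and some macrophages, was higher (log2 fold change 1.8 ± 0.32 (SE), adjusted p = 0.00099), as was Selp, and 0 were called in the fit of the 6 libraries. The median of the 12 was -0.30, in 6 the Casp1-/- Ifnar1-/- embryos lay wholly below the Casp1-/- embryos, and 5, Pecam1, Flt1, Cdh5, Emcn and Kdr, were lower without the fold threshold. Of 6 mesothelial genes Bnc1 and Upk3b were lower (log2 fold changes -1.27 and -1.15, adjusted p = 0.0045 and 0.0013), both calls being lost without Casp1-/- embryo 1.

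**Figure D5:**
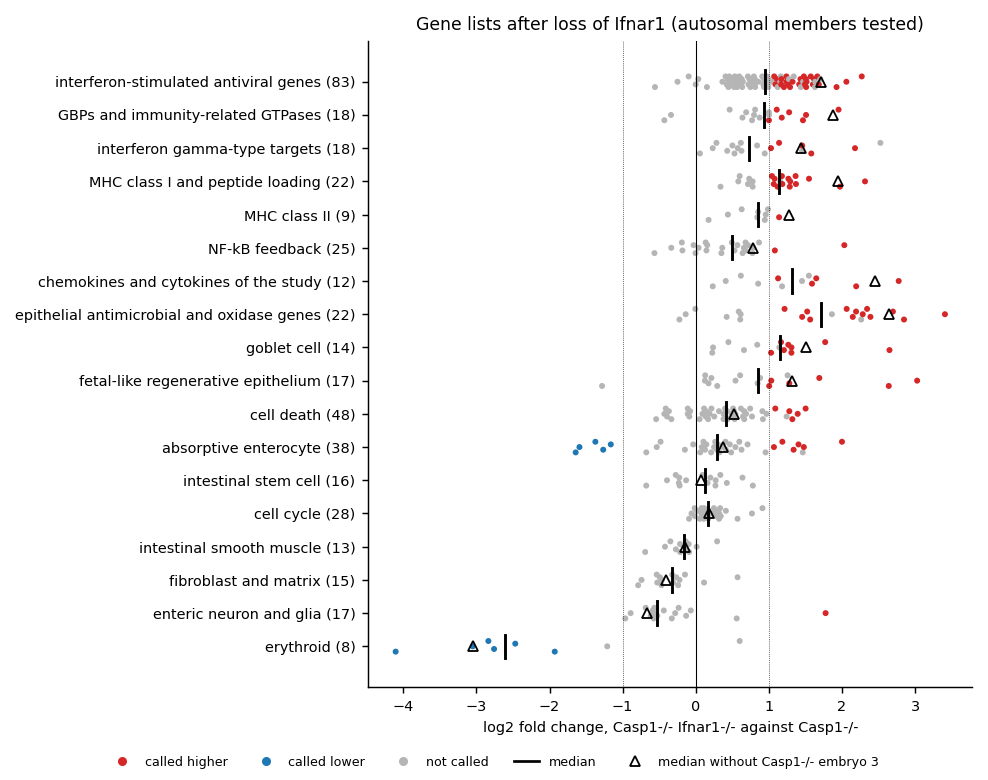
Each point is the log2 fold change of 1 autosomal gene of a list (x axis), with the list and the number of genes tested on the y axis, red where called higher, blue where called lower and grey otherwise. Bars mark the median of a list and triangles its median without Casp1-/- embryo 3, and the medians of the interferon, MHC class I and antimicrobial lists lay to the right of 0 while that of the erythroid list lay to the left.

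Markers of blood cells and other organs differed from list to list. Of all autosomal genes, 3.32% were called higher and 2.04% lower. Of 18 macrophage and monocyte genes, Cd14, the lipopolysaccharide co-receptor, was higher and Marco lower. Of 12 neutrophil genes, Ltf was higher and Ngp lower, of 14 T and NK cell genes Trbc2 and Gzmc were higher, and of 2 B cell genes 0 were called. Without Casp1-/- embryo 1 or 2 the neutrophil, T and NK cell lists had 0 called, and in the fit of the 6 libraries 0 genes of these lists or the macrophage list were called higher. Red cell transcripts were lower in the Casp1-/- Ifnar1-/- embryos, in 6 of 8 genes (median log2 fold change -2.61), and in 6 or 7 in each leave-out. Hba-a1, an adult α-globin gene, was at 813, 428 and 149 RPKM in Casp1-/- and 50.2, 70.3 and 85.1 RPKM in Casp1-/- Ifnar1-/- embryos, against 164, 112 and 201 RPKM in controls (log2 fold change -2.76 ± 0.47 (SE), adjusted p = 0.00079 between the first 2 groups). The α-globin genes are near-identical copies, so the value of 1 copy is uncertain. Embryos 1 and 2 of the Casp1-/- group, which were low for antiviral genes, had the most globin RNA. The liver list had 3 of 10 genes lower (6 with DESeq2, median -1.90), among them Fga, the fibrinogen α chain, at 7.72, 6.05 and 3.37 RPKM and 0.578, 0.782 and 0.688 RPKM (log2 fold change -3.06 ± 0.57 (SE), adjusted p = 0.0013). The stomach list had 0 of 10 called, although its summed RPKM were 3.55, 22.3 and 4.11 in Casp1-/- and 48.3, 74.3 and 46.6 in Casp1-/- Ifnar1-/- embryos, without overlap, and 5.22, 5.71 and 357 in the controls. Whether blood or tissue carried over at dissection had a part in other results was not tested.

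Pancreatic transcripts were present in all 3 Casp1-/- Ifnar1-/- embryos and lower in all 3 Casp1-/- embryos. Of 12 acinar genes 10 were higher and 0 lower (7 to 10 in the leave-outs, 7 with DESeq2 and 4 under a filter of at least 50 mean reads), and RPKM summed over the acinar list were 9.06 to 11.3 in Casp1-/- and 76.1 to 182 in Casp1-/- Ifnar1-/- embryos, against 37.4, 37.9 and 92.9 in the controls. The median log2 fold change of the tested members was 5.12, or 4.56 with the member that had no Casp1-/- read set at its bound. Cela2a, a pancreatic elastase, was at 0.17, 0.084 and 0.401 RPKM and 10.6, 28 and 16.7 RPKM, and at 0.283, 0 and 9.58 RPKM in the controls. Prss1, a trypsinogen, had 0 reads in the Casp1-/- group and 187 in the Casp1-/- Ifnar1-/- group, which made it at least 56.6-fold higher against a floor of 3 reads over the group. Reg2, a Reg-family gene of the exocrine pancreas, had 0 and 232 reads, at least 70.2-fold higher. Of 5 islet genes, Ins1 and Ins2 were higher, at no more than 0.0727 RPKM in Casp1-/- embryos and 1.16 to 1.77 RPKM in Casp1-/- Ifnar1-/- embryos, and both calls were lost without Casp1-/- embryo 1 or 2, without Casp1-/- Ifnar1-/- embryo 2 or 3, and under a filter of at least 50 mean reads. Reg3 genes, which the gut epithelium makes, are also known from acinar cells, and the part of pancreatic RNA in other results was not tested.

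Outside these lists, single transcripts also differed. Gm42031, a long intergenic non-coding RNA at chr8:85125872-85132289, had 0 reads in the Casp1-/- group and 615 in the Casp1-/- Ifnar1-/- group, at least 186-fold higher. It was at 1.87, 2.26 and 2.2 RPKM in the controls. Gm16554, an antisense RNA, had 80 reads in the Casp1-/- group and 0 in the Casp1-/- Ifnar1-/- group, at least 29.4-fold lower, and 0 RPKM in each control. Genes that were lower included Prodh2, a hydroxyproline dehydrogenase, at 9.32, 12.3 and 1.65 RPKM and 0.298, 0.482 and 0.685 RPKM (log2 fold change -3.99 ± 0.52 (SE), adjusted p = 0.0002), Abcb11, the bile salt export pump, at 6.1, 8.57 and 1.05 RPKM and 0.462, 0.386 and 0.394 RPKM (log2 fold change -3.66 ± 0.52 (SE), adjusted p = 0.00031), and Pgam2, the muscle phosphoglycerate mutase, at 9.8, 7.97 and 2.1 RPKM and 0.808, 0.29 and 0.705 RPKM (log2 fold change -3.46 ± 0.50 (SE), adjusted p = 0.00035). In each of these 3 genes embryo 3 was the lowest of the Casp1-/- embryos.

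Genes beside Ifnar1 on chromosome 16 were listed because a deleted allele bred from another stock can carry linked sequence. Of 90 genes tested within 10 Mb, 3 were higher and 3 lower, Ifnar1 included, and the median was 0.04. These counts were near the 3.32% and 2.04% of all autosomal genes. A930006K02Rik (chr16:91465025-91470128), which lies just upstream of Ifnar1, was at 1.64, 2.09 and 2.03 RPKM in Casp1-/- and 0.273, 1.05 and 0.817 RPKM in Casp1-/- Ifnar1-/- embryos (log2 fold change -1.41 ± 0.30 (SE), adjusted p = 0.0031). 2410124H12Rik was lower (log2 fold change -1.57 ± 0.53 (SE), adjusted p = 0.034), and Fam3b, Cldn14 and Gm5678 were higher (log2 fold changes 1.91 and 1.3 for the first 2, and 3 against 120 reads over the group for Gm5678). The neighbouring receptor genes Il10rb and Ifngr2 were not called, at log2 fold changes of -0.23 and 0.55 (adjusted p = 0.074 and 0.0058).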

How the data were processed

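RNA-seq libraries from E18.5 intestine were aligned by the authors with GSNAP to GRCm38, and reads on exons were summed per Ensembl gene. The methods name a stranded kit for the intestine libraries and the labels name a different kit. Whether the counting used strand is not given. The deposited tables hold raw counts per gene, the gene width in bases, and RPKM scaled by the authors to a library total larger than the sum of gene counts. The deposited counts were used, and RPKM was recomputed on TMM-scaled totals.

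Genotype effects were tested with edgeR 4.0.16 (quasi-likelihood, TMM, filterByExpr with 10 reads, prior count 0.125) in 1 fit of 18 libraries from 6 genotypes, with Benjamini-Hochberg adjustment over 18360 genes. Genes were called at an adjusted p under 0.05 and an absolute log2 fold change above 1. The edgeR fit was tested on simulated data. limma 3.58.1 (voom), DESeq2 1.42.0, other filters and leave-outs were alternatives. Replicates were biological replicates per the labels, which name no litters. The p-values use a spread shared over the 18 libraries of 6 genotypes. They do not measure the spread of the 6 compared embryos alone. Every pair within the 3 genotypes described differed beyond sampling noise. Chi-square per gene was 5.83 to 8.99 between controls, 13.2 to 70.8 between Casp1-/- embryos and 5.51 to 34.1 between Casp1-/- Ifnar1-/- embryos. Members and lists were chosen with earlier results of these data known. Named genes were the targeted genes, the study's 2 lists, the largest changes (12 each way), the smallest p values (10 each way), up to 6 called members each way of a list (or its 3 most abundant), and called genes within 10 Mb of Ifnar1. Ifnar2, Jak1, Tyk2, Stat2, Irf9, Isg15, Ifi211, Slfn5, Noxo1, Atoh1, Spdef, Igf2, Cdkn1c, Pigr, Ang4, Slpi and the Ifnar1 neighbours Il10rb and Ifngr2 were named outside this rule, after their values were seen. The endothelial genes Pecam1, Flt1, Cdh5, Emcn and Kdr went beyond the 3 most abundant of their list and were also named after their values were seen. Some members of the lists are not reported here. The 15 alternatives were 9 other fits and 6 leave-outs of 1 embryo each.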

Additional observations from a re-analysis of the deposited data

How the results depend on the processing

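The count of 944 called genes ranged from 556 to 1692 over the 6 leave-outs, with 319 to 1107 genes higher and 237 to 585 lower. A mean of at least 50 reads gave 555 (363 higher, 192 lower), the fit of the 6 libraries alone 398 (202 and 196), and dropping the fold threshold 5426 (2765 and 2661). limma-voom called 1006, DESeq2 898, RLE size factors 948, no filter 1027, prior count 2 887 and sex as a covariate 963. The causes were not tested, apart from the fewer genes tested under the stricter filter. Ifnar1 stayed lower throughout (log2 fold change -1.43 to -1.33). Against Mlkl-/- controls, 2208 genes were called in Casp1-/- Ifnar1-/- embryos (2083 to 2379 over leave-outs) and 779 in Casp1-/- embryos (577 to 968). No named gene reversed in any of these. With the replicate number as a block 949 genes were called (610 higher, 339 lower). Same-numbered embryos had deviations correlated at 0.07, -0.11 and 0.19. Casp1-/- embryos 1 and 3 correlated best with their own number, and Casp1-/- embryo 2 did not. The deviations within a group are tied to each other, so these values cannot decide whether the numbers pair embryos. Genes near the filter of 10 reads have wide counting error, and a gene not called here is not shown to be equal between genotypes.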

Other observations

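On the X chromosome, which was left out of the comparison because the genotypes differed in sex, Nox1, the NADPH oxidase of the colon epithelium and a partner of the autosomal Noxo1, was at 1.53, 1.65 and 8.91 RPKM in Casp1-/- embryos and 31, 28.2 and 24.2 RPKM in Casp1-/- Ifnar1-/- embryos (log2 fold change 2.79 ± 0.45 (SE), adjusted p = 0.00056, edgeR quasi-likelihood test). Its level in Mlkl-/- controls was 0.0984, 0.0615 and 0.0585 RPKM. All 3 Casp1-/- Ifnar1-/- embryos and 1 of 3 Casp1-/- embryos were male. Noxo1, the organiser subunit of that oxidase, was at 14.8, 12.7 and 40.7 RPKM and 54.9, 54.7 and 48.4 RPKM (log2 fold change 1.21 ± 0.28 (SE), adjusted p = 0.0046).

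Tmprss15, the enteropeptidase that activates trypsinogen at the duodenal brush border, was picked after its values were seen. It was at 0.0217, 0.0537 and 0.57 RPKM in Casp1-/- and 1.94, 2.92 and 2.26 RPKM in Casp1-/- Ifnar1-/- embryos (log2 fold change 3.48 ± 0.62 (SE), adjusted p = 0.00099), and at 0.157, 0.151 and 0.43 RPKM in the controls. Ccr1, a chemokine receptor of myeloid cells that was picked in the same way, was at 2.07, 1.79 and 2.81 RPKM and 4.48, 5.96 and 6.09 RPKM (log2 fold change 1.31 ± 0.18 (SE), adjusted p = 0.00025). Both stayed called in all 15 alternatives.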
